A study of Mus musculus with 2 samples.

Results

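The TNF ligand and receptor superfamilies were taken as every gene whose platform symbol starts with Tnfsf or Tnfrsf and a number, together with Lta, Ltb, Ltbr, Fas, Fasl, Cd40, Cd40lg and Cd70, while Tnf itself was left out. This gave 37 genes, 14 ligands and 23 receptors, of the 19505 genes with 1 symbol on the array, each measured by 1 probe set. Cd27, Tnfsf12 and Tnfsf13 were not analysed here. Expression was profiled by Affymetrix array in ILC3s, the group 3 innate lymphoid cells of the gut, with 1 array for circKcnt2 knockout and 1 for WT. The knockout mice lacked the intron sequences that let the circular RNA circKcnt2 form, removed by CRISPR/Cas9, and the WT mice kept them. Mice of both genotypes had received dextran sodium sulfate (DSS), a colitis-inducing agent, and the sort took cells without lineage markers, high in CD90 and low in CD45. Age, sex and the number of mice behind each array were not given in the labels. The comparison asks which genes differed between ILC3s without and with circKcnt2 after DSS. With 1 array per genotype there is no spread between replicates, so every difference below is a description of these arrays and has no p-value.

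TNF superfamily ligands are mostly trimeric membrane proteins, some of them shed, and they signal by clustering receptors on neighbouring cells. Receptors with a cytoplasmic death domain can recruit FADD or TRADD and start caspase or necroptosis signalling, whereas most others bind TRAF adaptors and activate NF-kappaB and MAP kinases, and a few are decoys that bind ligand without signalling. In lymphoid tissue the lymphotoxins drive the formation of lymph nodes and Peyer's patches, and in the gut several ligands, among them TL1A, act on lymphocytes during inflammation.

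Upstream sequences from RefSeq (mouse GRCm38.p6) were available for 28 of the 37 genes, in 32 windows of the 250 bases before an annotated start. They were searched on both strands for an NF-kappaB motif, GGGA followed by any 4 bases and CC, and an AP-1 motif, TGANTCA, with N for any base. The NF-kappaB letters were in 8 of 32 windows (25.0%), against 17.6% of the 32851 windows of all genes, and the AP-1 letters in 5 of 32 (15.6%), against 6.75% of all. Both were together in 3 of 32 windows (9.38%), those of Tnfsf14 and Tnfrsf8 and 1 of Tnfrsf9, against 0.935% of all windows. These 3 sequences are printed because they hold both motifs, and those of Tnfrsf1b and Tnfrsf4 because these receptors, like the ligand Tnfsf14, differed by at least 1.5-fold between the arrays. Each reads 5′ to 3′ on the strand of its gene, with motif matches in capitals. Tnfsf14 lies at chr17:57194182-57194431 (minus strand), Tnfrsf8 at chr4:145315165-145315414 (minus), Tnfrsf9 at chr4:150927749-150927998 (plus), Tnfrsf1b at chr4:145246871-145247120 (minus) and Tnfrsf4 at chr4:156013445-156013594 (plus, printed up to the annotated gene start, 150 bases).
Tnfsf14: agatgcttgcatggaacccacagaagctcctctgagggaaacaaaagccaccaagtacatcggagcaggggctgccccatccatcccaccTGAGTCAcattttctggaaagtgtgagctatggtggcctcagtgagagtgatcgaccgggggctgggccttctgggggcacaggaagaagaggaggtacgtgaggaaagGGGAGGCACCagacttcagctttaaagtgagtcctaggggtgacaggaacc
Tnfrsf8: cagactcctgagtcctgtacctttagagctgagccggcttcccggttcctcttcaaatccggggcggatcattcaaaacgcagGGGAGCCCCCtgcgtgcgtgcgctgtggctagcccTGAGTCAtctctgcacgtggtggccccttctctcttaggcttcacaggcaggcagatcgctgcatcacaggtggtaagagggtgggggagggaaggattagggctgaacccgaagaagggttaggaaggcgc
Tnfrsf9: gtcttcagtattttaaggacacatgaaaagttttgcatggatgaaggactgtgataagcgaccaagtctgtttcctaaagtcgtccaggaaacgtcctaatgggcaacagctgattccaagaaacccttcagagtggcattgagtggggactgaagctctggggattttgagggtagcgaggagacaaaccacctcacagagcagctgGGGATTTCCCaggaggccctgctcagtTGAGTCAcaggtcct
Tnfrsf1b: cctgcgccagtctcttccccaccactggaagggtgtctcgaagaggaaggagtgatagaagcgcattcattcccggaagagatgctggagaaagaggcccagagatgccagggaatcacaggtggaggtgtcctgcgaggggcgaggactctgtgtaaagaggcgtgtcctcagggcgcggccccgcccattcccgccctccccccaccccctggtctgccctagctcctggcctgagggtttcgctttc
Tnfrsf4: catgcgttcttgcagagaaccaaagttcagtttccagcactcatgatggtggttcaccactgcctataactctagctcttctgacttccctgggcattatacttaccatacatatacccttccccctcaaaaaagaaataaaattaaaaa
The first base of the NF-kappaB match lay at position -51 from the start in Tnfsf14, -167 in Tnfrsf8 and -42 in Tnfrsf9, whose window precedes a start 7844 bases inside the annotated gene. The AP-1 matches lay at -160 in Tnfsf14, -132 in Tnfrsf8 and -15 in Tnfrsf9. The other window of Tnfrsf9, at its annotated gene start, had no match to either motif. The windows of Tnfrsf1b and Tnfrsf4, the receptors with the largest positive differences, held neither motif. A match is a run of letters and not a measured binding site.

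Values are log2 levels, and a gene counted as above background at 2.73, a level that 95% of 1412 olfactory and vomeronasal receptor genes did not exceed on either array. Of the 37 genes, 31 (83.8%) were above it on at least 1 array, against 64.1% of all genes. They were 9 of 14 ligands and 22 of 23 receptors. Cd70, Tnfsf4, Tnfsf8, Tnfsf9 and Tnfsf18 were the ligands below background on both arrays, and Tnfrsf23 the receptor. Tnfrsf17 and Tnfrsf11b were above it on the WT array alone. Control probes matched for GC content ran up to 5.91, and 6 genes exceeded that on at least 1 array, named here after their values were seen: the ligands Ltb and Cd40lg and the receptors Tnfrsf1a, Tnfrsf18, Tnfrsf4 and Tnfrsf14. The levels of the other 25 therefore lie in the range of some control probes.

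**Figure D1:**
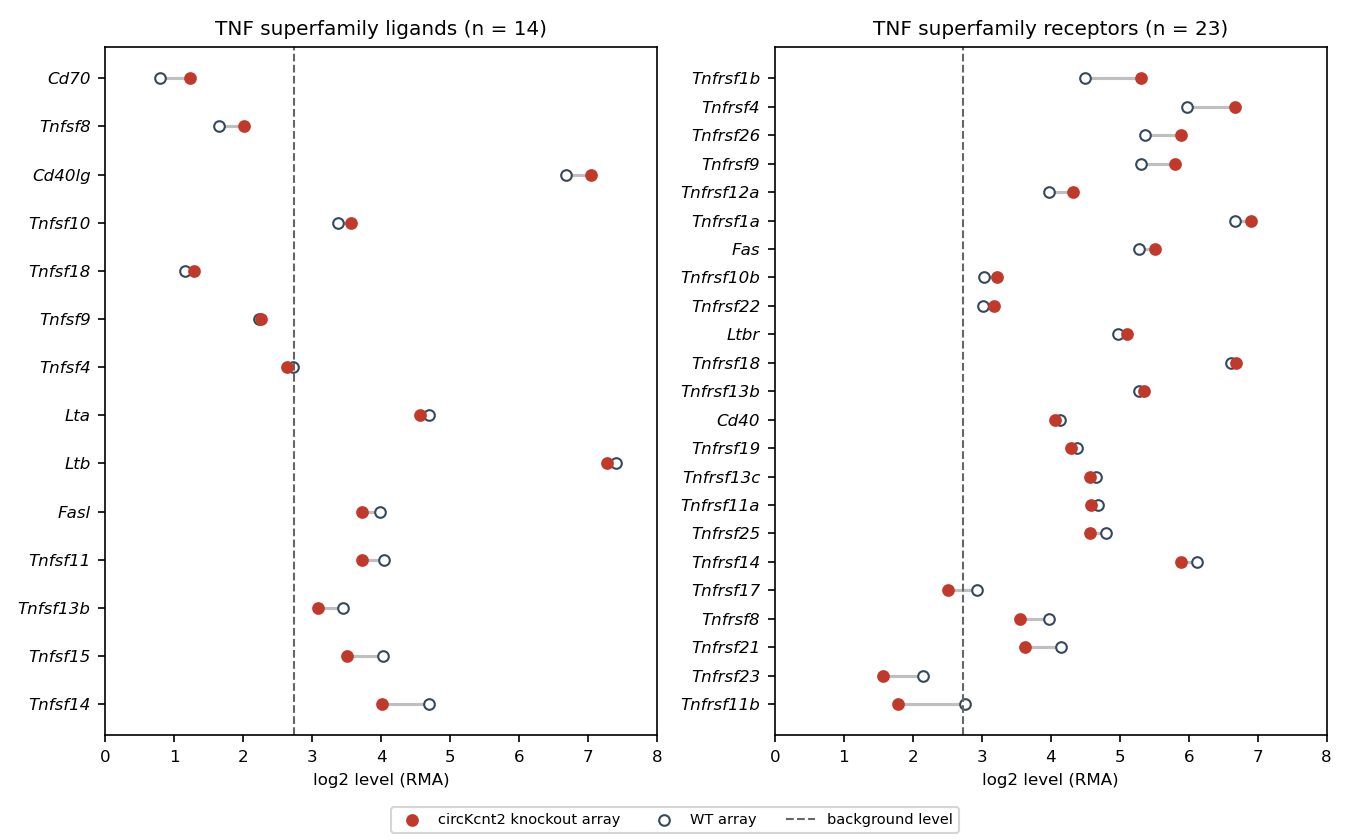
Log2 level (RMA) of each of the 14 ligands (left) and 23 receptors (right) on the circKcnt2 knockout array (filled) and the WT array (open), 1 array each, in order of the knockout minus WT difference, with the background level of 2.73 as a dashed line. Most pairs of points lie close together, with wider gaps for Tnfrsf1b, Tnfrsf4, Tnfsf14 and Tnfrsf11b.

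The sorted cells did not match their label in full. All 7 measured T cell markers were above background, although the sort excluded lineage-positive cells. Their summed log2 level was 12.35 on the knockout array and 12.21 on the WT array, and Cd3e read 10.16 and 9.98 on those arrays. Cd4, Cd8a and Cd8b1 read 9.28, 9.71 and 10.00 on the knockout array and 9.10, 9.65 and 9.96 on the WT array. All 7 T cell markers were higher on the knockout array, with a median difference of 0.18. That median was 0.06 for all genes above background and 0.16 for the 3467 genes above the highest GC control level. Of 11 measured ILC3 markers 8 were above background, while Il23r, Il1r1 and Ncr1 were below it on both. All 11 summed to 10.31 on the knockout array and 10.32 on the WT array. Thy1, Id2 and Il7r read highest, at 9.36, 8.39 and 7.70 on the knockout array and 9.31, 8.40 and 7.86 on the WT array. Kit, Ahr, Il22, Cxcr6 and Rora read at most 4.40 on either array, and Rora was above background on the WT array alone. Summed B and plasma cell markers (6 of 9 above background, Ms4a1 and Cd22 below on both) were 6.81 on the knockout array and 7.50 on the WT array, but their members differed in direction. Jchain read 4.30 on the knockout array and 6.72 on the WT array, whereas Cd79b read 4.87 on the knockout array and 3.91 on the WT array. Cd79a read 4.47 on the knockout array and 3.90 on the WT array. In all 3 were higher and 3 lower, and the 3 lower include Pax5, above background on the WT array alone. The floor thus fixed the direction of Pax5. NK and ILC1 markers (7 of 9 above background, Ncr1 and Eomes below on both) summed to 7.67 on the knockout array and 7.35 on the WT array. Of the 7, 3 were higher and 4 lower, with a median difference of -0.22. The 4 lower include Klrk1 and Klrc1, above background on the WT array alone, so the floor fixed their direction. The median includes both of these genes, so its sign is not read further. Gzma read 7.02 on the knockout array and 6.36 on the WT array, and Klra7 2.74 on the knockout array and 3.94 on the WT array. The Y-linked genes Uty, Kdm5d and Eif2s3y were below background on the knockout array and above it on the WT array, so the sex of the mice and the genotype cannot be told apart. The part of these differences in the results below was not tested.

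In all, 4 of the 31 TNF superfamily genes above background (12.9%) differed by at least 1.5-fold, against 12.9% of all 12504 genes above background, the same share. The members' share moved with the scaling, to 6.45% against 11.0% of all genes after loess correction, 9.68% against 11.2% after quantile normalization and 16.1% against 12.7% with the median of all genes subtracted. The receptors Tnfrsf1b and Tnfrsf4 were higher on the knockout array (as were 7.66% of all genes at this fold), and the ligand Tnfsf14 and the receptor Tnfrsf11b were lower in the measured values (5.21% of all genes). Tnfrsf11b was below background on the knockout array and has only a bound, at least 1.02-fold lower. When levels under background were set to it, this gene was no longer past 1.5-fold, and 3 of 31 genes (9.68%) were, against 10.5% of all genes. None of the 31 reached 2-fold in the measured values, against 1.62% of all genes (1.11% upward and 0.512% downward). Among genes of like level, Tnfrsf4 and Tnfsf14 lay outside the middle 95% of differences, which is 6.45% of the 31, against 5.12% of all genes. In bulk RNA, fewer cells that carry a transcript and less of it per cell cannot be told apart.

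**Figure D2:**
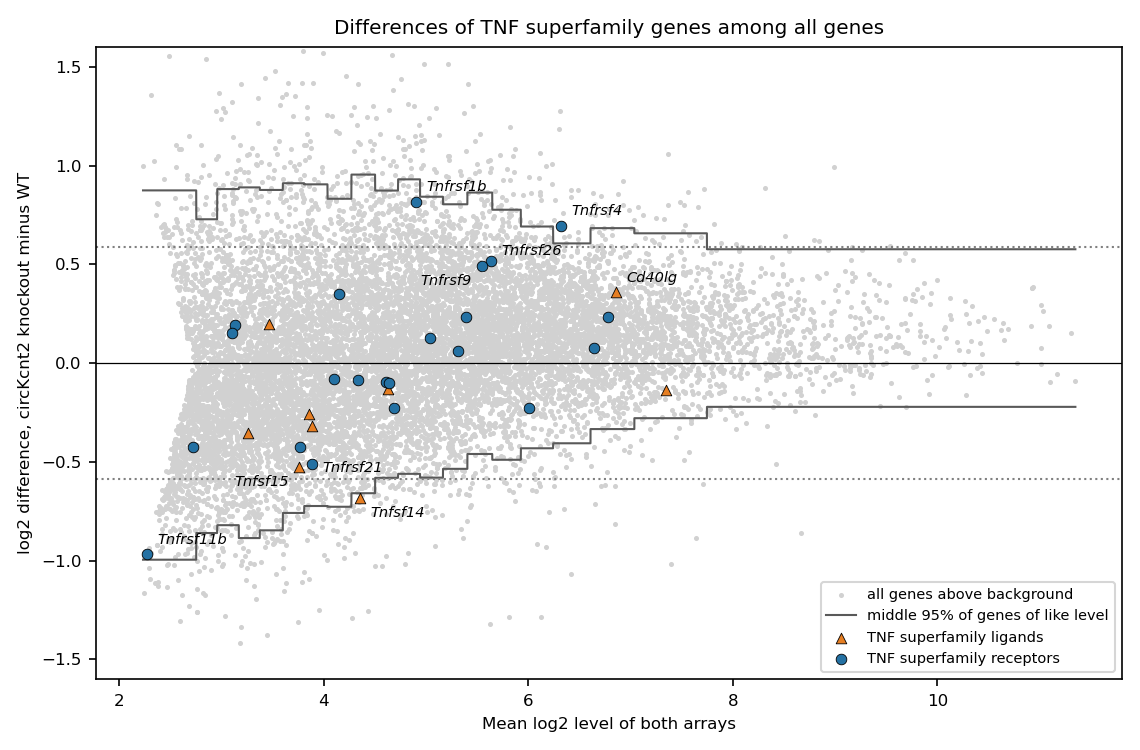
Log2 difference, circKcnt2 knockout minus WT, against the mean log2 level of both arrays, for ligands (triangles), receptors (circles) and all 12504 genes above background (grey), of which 12 lie beyond the vertical axis. Stepped lines bound the middle 95% of genes of like level and dotted lines mark 1.5-fold; Tnfrsf4 lies above the upper step and Tnfsf14 below the lower one.

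The ligands above background were mostly lower on the knockout array. Of the 9 measured above background, 7 had a lower and 2 a higher level there, with a median difference of -0.26, against 0.06 for all genes, of which 43.5% were lower. That split was the same under the 3 other scalings tried, but over all 14 ligands, without a floor, 8 were lower and 6 higher and the median was -0.10. Tnfsf14, or LIGHT, which engages both the lymphotoxin beta receptor and HVEM, had a log2 level of 4.01 on the knockout array and 4.70 on the WT array, 1.61-fold lower. Its difference of -0.68 lay just below the -0.66 to 0.95 that held the middle 95% of like-level genes. Tnfsf15, which encodes TL1A, the ligand of DR3, read 3.50 on the knockout array and 4.03 on the WT array, 1.44-fold lower and within the like-level range. With the median of all genes subtracted its difference was -0.59, just past 1.5-fold.

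Ligands of B cells and of lymphoid organ stroma differed less. Tnfsf13b, the B cell survival factor BAFF, had a log2 level of 3.09 on the knockout array and 3.44 on the WT array. Tnfsf11, or RANKL, the osteoclast factor that also shapes lymph nodes and M cells, read 3.73 on the knockout array and 4.05 on the WT array. Both were lower by under 1.5-fold, as was the T cell and NK cell death ligand Fasl, at 3.73 on the knockout array and 3.99 on the WT array. The lymphotoxins, which signal from lymphoid tissue inducer cells to stroma, were close to equal on the arrays. Lta read 4.56 on the knockout array and 4.69 on the WT array, and Ltb, the subunit that anchors lymphotoxin to the membrane, read 7.27 on the knockout array and 7.41 on the WT array.

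The higher ligands were Cd40lg and the apoptosis ligand Tnfsf10 (TRAIL), neither past 1.5-fold. Cd40lg, through which helper T cells activate B cells and dendritic cells, read 7.03 on the knockout array and 6.68 on the WT array. It is X-linked, and the median difference was 0.14 over the 369 X-linked genes above background and 0.06 over the 12125 of the other chromosomes. The 5 ligands below background on both arrays include Tnfsf4, Tnfsf8 and Tnfsf9, the ligands of OX40, CD30 and 4-1BB, with levels on the knockout array of 2.64, 2.02 and 2.25, and on the WT array of 2.72, 1.65 and 2.23. No fold is given for them.

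The receptors had no shared direction. Among the 22 that exceeded background, 12 had a higher and 10 a lower knockout level, against 56.4% and 43.5% of all genes. The 10 include Tnfrsf11b and Tnfrsf17, whose direction the floor fixed, as they exceeded it on the WT array alone. The median difference of the 22, 0.07 beside 0.06 for all genes, was -0.068 after loess correction and -0.073 after quantile normalization. Tnfrsf13b and Tnfrsf18 changed sign under both of these.

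Among the 14 TRAF-binding receptors, 7 were higher and 7 lower, and 5 were higher and 9 lower after loess correction or quantile normalization. Tnfrsf1b, the type II TNF receptor that sustains activated and regulatory T cells, read 5.31 on the knockout array and 4.49 on the WT array, 1.76-fold higher. It was the largest positive difference among these genes and ranked 339th highest of all 12504 genes, within the -0.56 to 0.93 of its like-level genes. Tnfrsf4, or OX40, a costimulatory receptor of activated T cells, read 6.67 on the knockout array and 5.97 on the WT array, 1.62-fold higher. Its difference of 0.70 was above the -0.41 to 0.61 of like-level genes, but was 0.54 after loess correction and 0.54 after quantile normalization, under 1.5-fold in both. Tnfrsf9, the 4-1BB receptor induced on activated T and NK cells, read 5.79 on the knockout array and 5.30 on the WT array, 1.40-fold higher.

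Tnfrsf8, which encodes CD30, was the TRAF-binding receptor with the lowest difference. It read 3.55 on the knockout array and 3.98 on the WT array, 1.34-fold lower. Tnfrsf17, the plasma cell survival receptor BCMA, was below background on the knockout array at 2.51 and above it on the WT array at 2.93, so it was at least 1.15-fold lower, while of the B and plasma cell markers Jchain was lower and Cd79a and Cd79b higher, as given above. The other BAFF receptors were closer to equal. Tnfrsf13b (TACI) read 5.35 on the knockout array and 5.28 on the WT array, and Tnfrsf13c (BAFF-R) 4.56 on the knockout array and 4.66 on the WT array.

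Partner receptors of the ligands above differed little. Ltbr, the receptor through which lymphotoxin organises stroma, read 5.10 on the knockout array and 4.97 on the WT array. Tnfrsf14, or HVEM, read 5.89 on the knockout array and 6.12 on the WT array, and Tnfrsf11a, the RANK receptor, 4.58 on the knockout array and 4.69 on the WT array. Cd40, a B cell and dendritic cell receptor, read 4.06 on the knockout array and 4.14 on the WT array. None of these 4 passed 1.5-fold. The remaining TRAF-binding receptors, Tnfrsf12a, Tnfrsf18 and Tnfrsf19, did not pass it either.

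None of the 5 death domain receptors passed 1.5-fold, with 3 higher and 2 lower on the knockout array. Fas, the receptor through which Fasl kills, read 5.51 on the knockout array and 5.28 on the WT array. Tnfrsf21, or DR6, read 3.63 on the knockout array and 4.14 on the WT array, 1.42-fold lower, the largest difference of the class. Tnfrsf25, which encodes the TL1A receptor DR3, read 4.57 on the knockout array and 4.80 on the WT array. Tnfrsf1a, the ubiquitous type I TNF receptor, read 6.90 on the knockout array and 6.66 on the WT array, and Tnfrsf10b, the TRAIL receptor, was also higher by under 1.5-fold.

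Of the receptors that lack a signalling domain or are little studied, Tnfrsf11b, the secreted RANKL decoy osteoprotegerin, was measured near background. It read 1.78 on the knockout array and 2.75 on the WT array, a difference of -0.97 within the -0.996 to 0.87 of like-level genes. The WT level was only just above background and the knockout level below it, which leaves only the bound of at least 1.02-fold lower. Tnfrsf26 read 5.89 on the knockout array and 5.37 on the WT array, 1.43-fold higher. Its neighbours Tnfrsf22 and Tnfrsf23, decoy TRAIL receptors of the mouse, gave 1.11-fold higher for Tnfrsf22 and levels below background on both arrays for Tnfrsf23.

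Of 22 known ligand and receptor pairs, 18 had both genes measured. Both partners were above background in 12 pairs on the knockout array and 14 on the WT array, and only the receptor in 4 on each, those of Tnfsf4, Tnfsf8, Tnfsf9 and Tnfsf18. Only the ligand was above it in 2 pairs on the knockout array, Tnfsf11 with Tnfrsf11b and Tnfsf13b with Tnfrsf17, and in 0 on the WT array. Of the 12 pairs with both genes above background on both arrays, the ligand was lower and the receptor higher in 6 (5 after loess correction or quantile normalization), both were lower in 4, both were higher in 1 (Tnfsf10 and Tnfrsf10b) and the ligand was higher and the receptor lower in 1 (Cd40lg and Cd40). Pairs share genes, so these counts are not independent, and they describe RNA in a sorted bulk and not contact between cells.

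**Figure D3:**
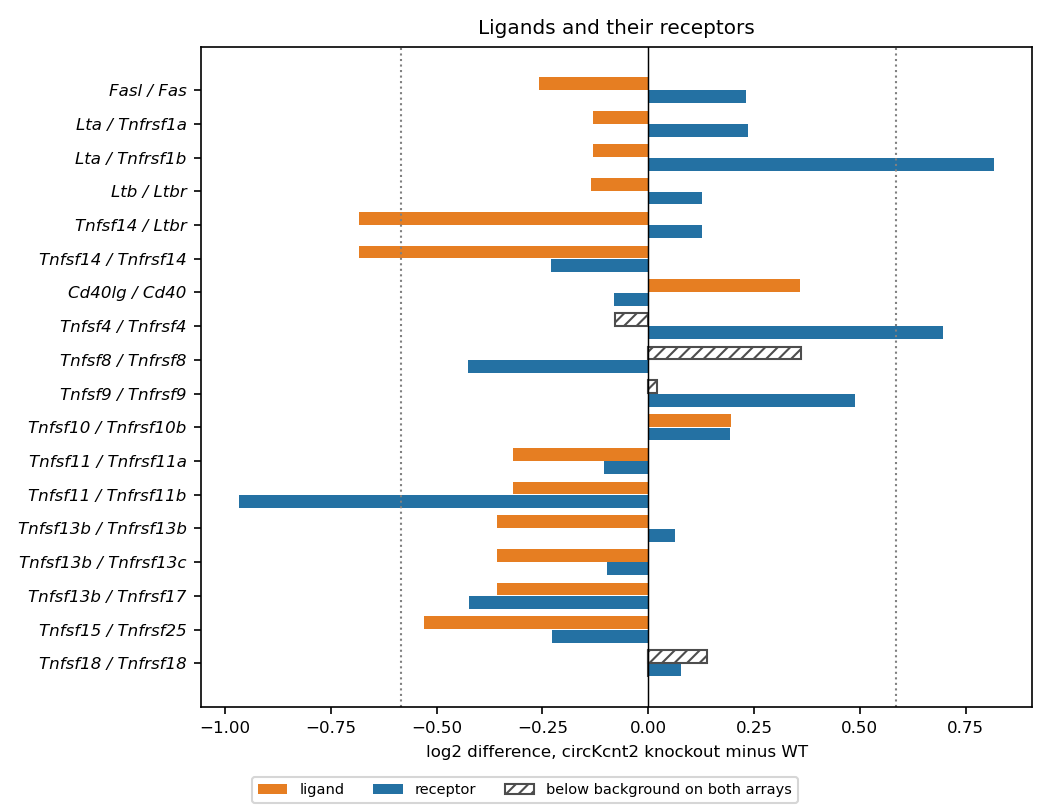
Log2 difference, circKcnt2 knockout minus WT, for the ligand (orange) and receptor (blue) of 18 measured pairs, hatched where the gene was below background on both arrays, with dotted lines at 1.5-fold. Tnfsf14 appears with both of its receptors, of which Ltbr was higher and Tnfrsf14 lower.

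Some genes of the family that sit side by side had differences of opposite sign. In GRCm38.p6, Tnfrsf1b and Tnfrsf8 are adjacent on chromosome 4 with 0 protein-coding genes between, and their differences of 0.82 and -0.42 were 1.24 apart. Others shared their sign. Tnfrsf4 and Tnfrsf18, adjacent on the same chromosome and both costimulatory receptors, had differences of 0.70 and 0.08, both positive. Ltbr and Tnfrsf1a, with 1 protein-coding gene between them on chromosome 6, had differences of 0.13 and 0.24, which were 0.11 apart. On chromosome 17, Tnf, which lies between Ltb and Lta, had a difference of 0.91, at 4.67 on the knockout array and 3.76 on the WT array (1.88-fold higher), while Ltb and Lta had differences of -0.14 and -0.13.

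Among other superfamily genes, 4 of 6 were above background, 1 at least 1.5-fold higher (Tnf) and 1 lower. The lower one was Ngfr, the low-affinity nerve growth factor receptor, at 3.26 on the knockout array and 4.07 on the WT array, 1.75-fold lower. Of the 14 measured TRAF and death domain adaptors, all above background, 12 were higher and 2 lower, against 56.4% of all genes higher. Their median was 0.27, against 0.06 for all genes. It was 0.10 for the 9753 genes whose mean level reached the median of all named genes. After loess correction or quantile normalization 11 adaptors were higher and 3 lower, with a median of 0.13. Of these adaptors 2 were at least 1.5-fold higher, against 7.66% of all genes, and 4 were after loess correction (Traf5 and Traip added) and 3 after quantile normalization (Traf5 added). Traf1, which binds the type II TNF receptor and 4-1BB, read 4.23 on the knockout array and 3.30 on the WT array, 1.91-fold higher. Ripk3, the necroptosis kinase, read 5.85 on the knockout array and 5.12 on the WT array, 1.66-fold higher.

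In the next lists the counts can be read against the 7.66% of all genes at least 1.5-fold higher and the 5.21% lower. Of 8 inhibitor of apoptosis, caspase and FLIP genes above background, 1 was at least 1.5-fold higher, the BH3-only gene Bid at 3.60 on the knockout array and 2.99 on the WT array (1.53-fold). The call for Bid was lost with the median of all genes subtracted. Of 16 kinases and NF-kappaB subunits, 1 was higher, the IKK-related kinase Ikbke at 6.10 on the knockout array and 5.31 on the WT array (1.73-fold), and 1 was lower, the IKK regulatory subunit gene Ikbkg at 2.82 on the knockout array and 3.54 on the WT array (1.64-fold). Of 14 feedback and ubiquitin genes, Otulin, which removes linear ubiquitin chains, was the 1 past 1.5-fold, at 4.66 on the knockout array and 3.40 on the WT array (2.39-fold higher). Tnfaip3, the NF-kappaB feedback gene A20, read 8.06 on the knockout array and 8.24 on the WT array. Of 7 shedding and processing genes, 0 passed 1.5-fold, with a median of 0.031 that was -0.12 after loess correction.

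**Figure D4:**
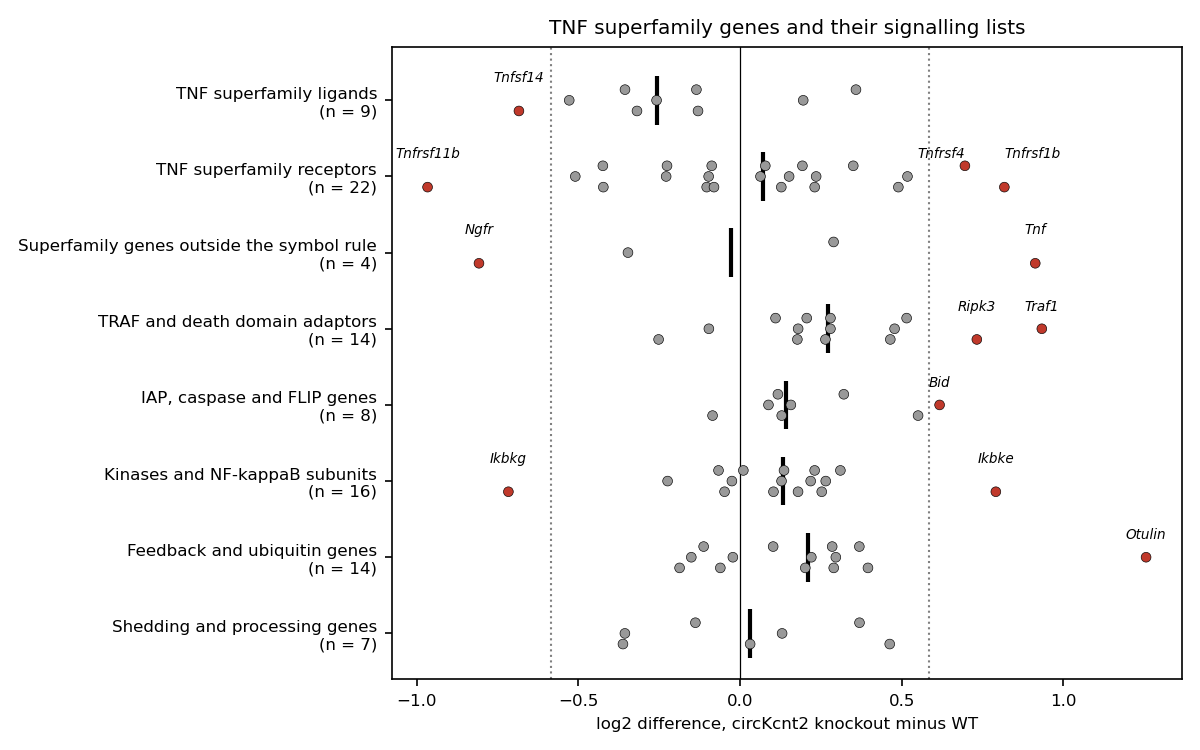
Log2 difference, circKcnt2 knockout minus WT, of each gene above background in the ligands, the receptors and the 6 signalling lists, with the median of each list as a black bar, dotted lines at 1.5-fold and genes past it in red. The TRAF and death domain adaptors have a median of 0.27 and the ligands -0.26.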

How the data were processed

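RNA of sorted ILC3s from DSS-treated circKcnt2 knockout and WT mice was measured on 1 array per genotype, grouped by the genotype in the labels. Per the labels the authors made the deposited log2 values with Affymetrix Power Tools by RMA, which corrects background, applies quantile normalization and summarises probes (tool versions: not given in the sources used). RMA can hide a shift of all genes. The array model is not settled: the protocol is for Mouse Gene 2.0, but identifiers in the table belong to a different Affymetrix mouse design. Arrays have no read depth, and 1 array per group limits precision.

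Genes were named through the platform annotation, and probe sets of 1 gene were averaged (55 of 19505 genes). Genes were kept at or above background on at least 1 array; like-level ranges used 20 bins of mean level. Folds against a level below background are bounds. Members, lists and alternatives were chosen with earlier results of these data known. Values are given one by one for members past 1.5-fold, the 6 ligands and 8 receptors of largest difference, and their partners, with others added where a role called for it. Scripts (Python 3.11.15, pandas 2.3.3, statsmodels 0.14.6) were tested on simulated data. Alternatives changed the floor, the scaling (loess span 0.3), the probe set, the offset (32) and the threshold.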

Additional observations from a re-analysis of the deposited data

How the results depend on the processing

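The count of ligands at least 1.5-fold lower, 1 as reported, was 2 with the median of all genes subtracted (Tnfsf15 added) and 0 with 32 added before the logarithm, at 2-fold, or with the floor set at the highest control probe of matched GC (GC control floor). The ligand median of -0.26 was -0.10 without a floor, -0.082 with 32 added and 0.11 at the GC control floor, where 2 ligands were left. Receptors at least 1.5-fold higher, 2 as reported, were 1 under loess, quantile normalization and the GC control floor, and 0 with 32 added or at 2-fold. The receptor at least 1.5-fold lower, Tnfrsf11b, gave 1 as reported and 0 under the stricter floor, loess, 32 added, 2-fold, values raised to background and the GC control floor. The receptor median of 0.07 was -0.068 under loess and -0.073 under quantile normalization. The share of all genes past 1.5-fold was 0.664% with 32 added and 11.0% under loess. Raising values to background and the GC control floor were chosen after seeing the data. Among the values of the 31 genes under alternatives, 198 moved by less than 0.1 on the log2 scale, 50 moved by more, and 0 of the called values changed sign.

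No paired analysis was possible because each genotype has 1 array.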

Other observations

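Tnfrsf4 and Tnfrsf1b are also carried by regulatory T cells, so 8 genes of these cells were read after the values of both receptors were seen. Foxp3 was not analysed here, and Il10 was below background on both arrays. The other 6 were higher on the knockout array (5 of 6 with the median of all genes subtracted), with a median difference of 0.40. Of all genes above background, 56.4% were higher. The 7 measured T cell markers were also all higher, with a median difference of 0.18, and Cd3d read 8.78 on the knockout array and 8.36 on the WT array. For the 3467 genes above the highest GC control level the median difference was 0.16. Of the 6, Lrrc32 passed 1.5-fold in the measured values, and Il2ra also did after loess correction or quantile normalization, against 7.66% of all genes at least 1.5-fold higher. Ikzf2 read 7.06 on the knockout array and 6.89 on the WT array, Gpr83 6.27 on the knockout array and 5.76 on the WT array, and Ctla4 4.16 on the knockout array and 4.12 on the WT array. Lrrc32 and Il2ra were above background on the knockout array alone, at least 1.23-fold and at least 1.26-fold higher. The floor thus fixed the direction of these genes in the count of 6, and the median of 0.40 includes them. Ikzf2, Ctla4, Itgae and Gpr83, above background on both arrays, had differences of 0.17, 0.05, 0.30 and 0.51. Whether the signal of the regulatory T cell genes and that of the 2 receptors came from the same cells was not tested.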
